A study of Homo sapiens with 2 samples.

Results

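The lysosome and autophagy genes examined here were 42 genes, picked by name from the 58174 genes that the deposited tables list for each library. They were sorted by role into 8 groups, namely transcription factors, lysosomal membrane proteins, cathepsins, other lysosomal hydrolases with their cofactors, autophagy initiation, the conjugation of ATG8 proteins, the ATG8 family itself and autophagy receptors. All 42 symbols matched exactly 1 row in each library. A level of at least 1 TPM (transcript abundance normalised for transcript length, with equal totals in both libraries) in either library was reached by 40 of them, while MITF and ULK2 stayed below it in both.

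PLC-8024 is a human hepatocellular carcinoma (HCC) cell line. RNA-seq was performed on poly-A RNA of PLC-8024-CTR cells, which carried a control vector, and of PLC-8024-GDF1 cells, in which GDF1, a secreted ligand of the TGF-β superfamily, was overexpressed by lentiviral transduction with puromycin selection. There was 1 library per condition, so no difference has a replicate check, no test was made and every comparison describes these 2 libraries. Whether the stable cells were a pool or a clone is not given in the sources used here, and in bulk RNA fewer cells with a transcript and less transcript per cell cannot be told apart. TPM keeps no sequencing depth, so the depth is unknown and no counting interval is given. In what follows, the first of each pair of values is PLC-8024-CTR and the second PLC-8024-GDF1. GDF1 itself was listed at 2.1 and 4.64 TPM, and CERS1, a gene that shares a bicistronic transcript with GDF1, at 13.3 and 9612 TPM. All 8 hepatocyte and hepatoma markers checked reached 1 TPM, with summed levels of 11027 and 6773 TPM. SERPINA1, at 5308 and 2915 TPM (1.82-fold lower), gave most of that difference in TPM, but it was not the marker that differed most in ratio. ALB (2.47-fold), APOA1 (3.82-fold), APOA2 (2.39-fold), AFP (3.22-fold) and TTR (21.1-fold) were more than 2-fold lower, and FGB was 1.31-fold lower. TF was the sole one of the 8 with a higher level in PLC-8024-GDF1, at 1318 and 1434 TPM. The 3 epithelial keratins had summed levels of 2434 and 3012 TPM. KRT19, the lowest of them, was 2.45-fold higher at 4.46 and 10.9 TPM, while KRT8 and KRT18 were 1.25-fold and 1.22-fold higher. The part of these marker differences in the results below was not tested. None of 5 leukocyte markers, 1 of 5 fibroblast markers (COL3A1) and 1 of 4 endothelial markers (PECAM1) reached 1 TPM, with PTPRC, COL1A2, DCN, VWF and KDR listed at 0 in both.

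The lysosome is the acidic organelle in which hydrolases break down proteins, lipids and glycans. In macroautophagy a double membrane closes around cytoplasmic cargo and fuses with the lysosome. ULK1 and Beclin 1 complexes start the membrane, a pair of ubiquitin-like conjugation reactions attach ATG8 proteins (LC3 and GABARAP) to it, and receptors such as p62 tether the cargo. TFEB and its relatives TFE3 and MITF bind the E-box CACGTG in the promoters of many of these genes, and mTORC1 on the lysosomal surface keeps TFEB in the cytoplasm of fed cells. In hepatocytes the pathway turns over mitochondria, lipid droplets and protein aggregates.

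For each gene the log2 change was taken as log2(TPM + 1) in PLC-8024-GDF1 minus that in PLC-8024-CTR, where the added 1 makes changes of low genes smaller, and a gene is counted as past 2-fold where this value is at least 1 in either direction. Of the 40 genes with at least 1 TPM, 2 were past 2-fold higher in PLC-8024-GDF1 (GABARAPL1 and ATG7), 5 were past 2-fold lower (LAMP1, CTSC, NEU1, ATG16L1 and MAP1LC3B) and 33 lay within 2-fold. These shares, 5% and 12.5%, compare with 4.82% higher and 9.61% lower over all 14929 genes with at least 1 TPM. By the plain TPM ratio among genes with at least 5 TPM, the same counts of 2 and 5 came from 39 members, against 5.79% higher and 13.3% lower over all 9632 such genes. The median log2 change was -0.18 over the 40 members and -0.20 over all genes, and 22 members lay above the latter value and 18 below it. As a list, the lysosome and autophagy genes were therefore close to the background in both directions. Genes past 2-fold were about as frequent among them as among all genes, and each is described below without a replicate check.

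The promoters of 6 lysosomal members that hold the E-box are shown first, because this element is shared by genes that differed in opposite directions, together with those of GABARAPL1 and MAP1LC3B, the ATG8 genes that differed most. Sequences are from RefSeq on GRCh38.p14, written 5′ to 3′ on the gene's strand with CACGTG in capitals, and positions are counted from the transcription start. They cover bases 200 upstream to 10 downstream for LAMP1 (chr13:113297039-113297248, plus strand), 160 to 101 upstream for NEU1 (chr6:31862922-31862981, minus strand), and 100 to 1 upstream for GAA (chr17:80101481-80101580, plus strand). The other stretches cover bases 80 to 1 upstream, for CTSD (chr11:1763928-1764007, minus strand), CTSA (chr20:45891255-45891334, plus strand), MCOLN1 (chr19:7522544-7522623, plus strand), GABARAPL1 (chr12:10212797-10212876, plus strand) and MAP1LC3B (chr16:87392256-87392335, plus strand).
LAMP1: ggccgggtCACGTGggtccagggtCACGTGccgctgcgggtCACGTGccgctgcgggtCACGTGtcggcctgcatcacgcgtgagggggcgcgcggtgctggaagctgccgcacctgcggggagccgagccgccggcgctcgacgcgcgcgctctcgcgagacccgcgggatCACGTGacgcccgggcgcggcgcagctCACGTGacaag
NEU1: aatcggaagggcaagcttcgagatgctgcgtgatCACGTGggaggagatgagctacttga
GAA: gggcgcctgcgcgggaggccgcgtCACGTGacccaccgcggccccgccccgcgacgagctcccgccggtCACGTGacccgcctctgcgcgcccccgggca
CTSD: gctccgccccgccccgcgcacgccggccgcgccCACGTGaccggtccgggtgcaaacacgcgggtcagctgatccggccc
CTSA: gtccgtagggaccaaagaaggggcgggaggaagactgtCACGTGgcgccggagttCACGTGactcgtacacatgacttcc
MCOLN1: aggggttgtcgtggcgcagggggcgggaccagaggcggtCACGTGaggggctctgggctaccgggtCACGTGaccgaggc
GABARAPL1: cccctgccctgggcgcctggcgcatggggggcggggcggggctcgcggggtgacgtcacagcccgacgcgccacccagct
MAP1LC3B: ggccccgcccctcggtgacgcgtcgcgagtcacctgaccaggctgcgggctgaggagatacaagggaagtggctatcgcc

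In the RefSeq promoter table, which gives 250 bases before and 50 after each start, 37 members had 56 windows. HEXA, PSAP, LAMP2, CTSS and CTSB were not matched. CACGTG, which reads the same on both strands, was found in windows of 9 members (24.3% of 37), against 8.77% of the 27305 genes in the table, and in 9 of 56 windows against 7.26% of 35116 windows. Among members with lysosomal products it was found in 7 of 14 (LAMP1, NEU1, GAA, CTSD, CTSA, MCOLN1 and CD63), and among autophagy members in 2 of 20 (ATG3 and ATG14). The longer form TCACGTGA, which contains CACGTG, was found in 5 members (LAMP1, GAA, CTSA, MCOLN1 and ATG3), 13.5% of 37 against 1.18% of all genes. The genes of the promoter table were not limited to those expressed in these libraries. These shares were therefore not matched for expression, base composition or windows per gene. LAMP1 held 6 copies of CACGTG, the first 192 bases upstream and the last across the start. No match was found in the 300-base windows of GABARAPL1, MAP1LC3B, ATG7, ATG16L1 or CTSC. The 9 members with the E-box had a median log2 change of 0.05 and ranged from -1.36 (NEU1) to 0.82 (CTSD), and the 26 matched and expressed members without it had a median of -0.18 and ranged from -1.41 to 2.04. Of the 9, 5 lay above 0 and 4 below it, while 0 were past 2-fold higher and 2 past 2-fold lower (LAMP1 and NEU1). Of the 26, 2 were past 2-fold higher and 3 lower, beside 4.82% and 9.61% of all genes. The signs of the 9 thus differed, and the part of TFEB or its relatives in this was not tested.

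**Figure D1:**
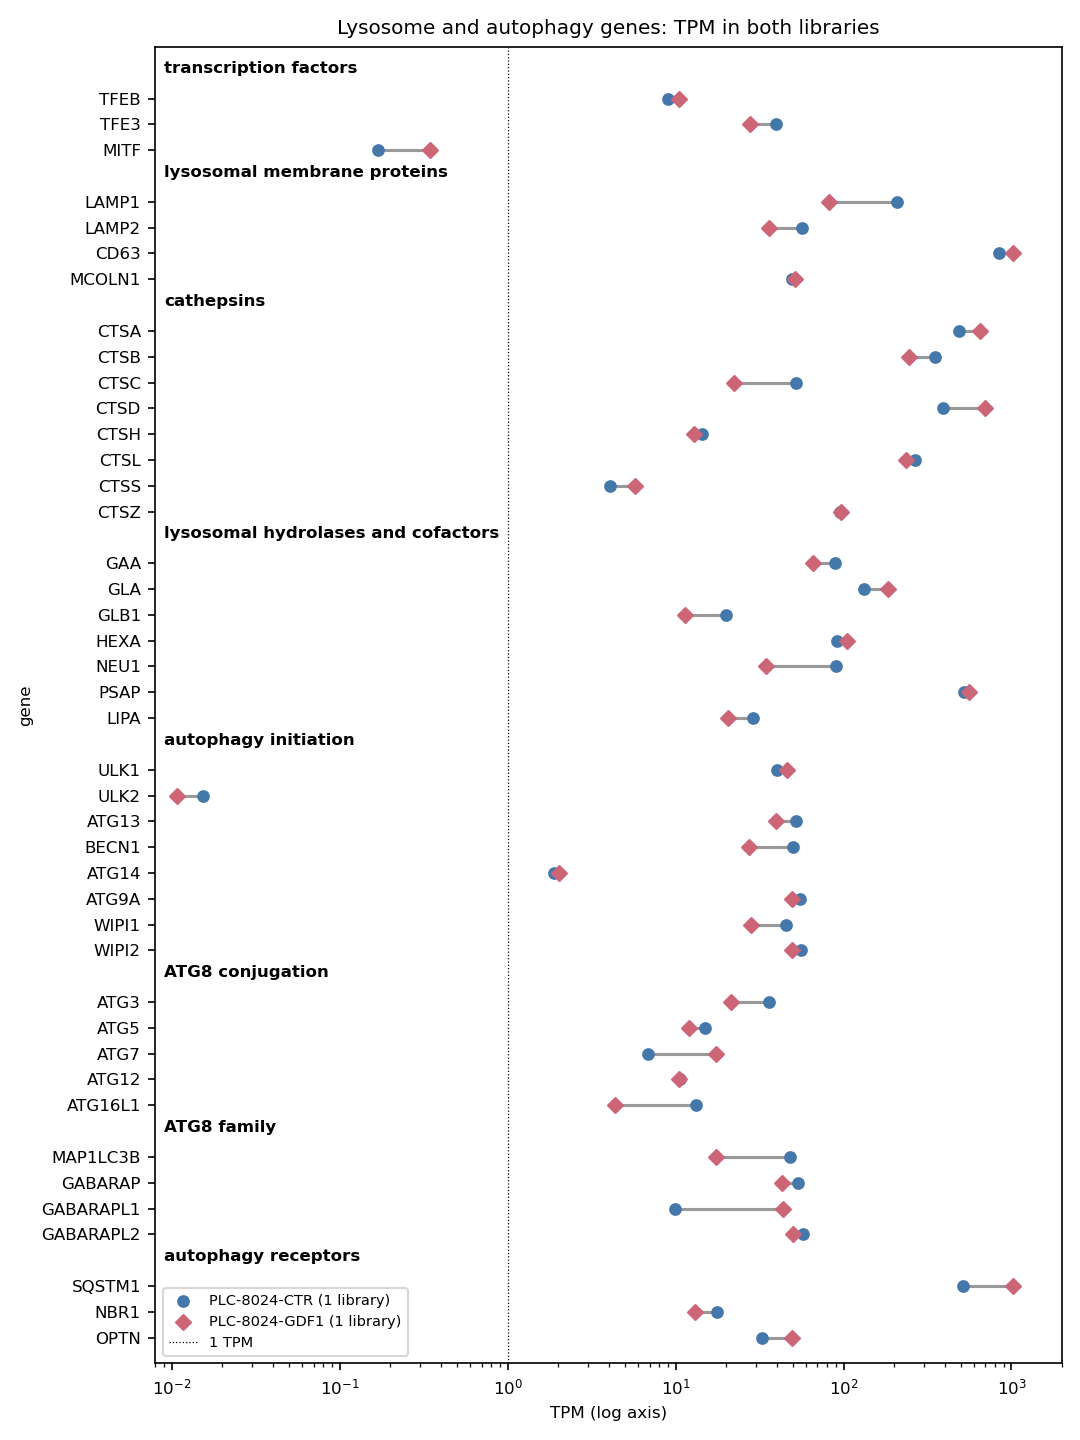
TPM of the 42 genes on a log axis, sorted by role, with PLC-8024-CTR as circles and PLC-8024-GDF1 as diamonds joined by a line, 1 library each. GABARAPL1 has the widest gap to the right (9.90 to 43.8 TPM), LAMP1, CTSC, NEU1, ATG16L1 and MAP1LC3B have wide gaps to the left, and MITF and ULK2 lie left of the dotted line at 1 TPM.

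Among the transcription factors, TFE3 had the highest level and TFEB came next. TFE3 had 39.8 TPM in PLC-8024-CTR cells and 27.6 TPM in PLC-8024-GDF1 cells (log2 change -0.51). TFEB had 8.96 and 10.5 TPM (log2 change 0.21). MITF, known as the master regulator of melanocytes, was listed at 0.17 and 0.34 TPM, under the 1 TPM limit in both libraries. None of the 3 factors was past 2-fold.

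Of the lysosomal membrane proteins, LAMP1 was past 2-fold lower and the other 3 were not. LAMP1 (chromosome 13 of GRCh37, 113951554 to 113977987, plus strand), an abundant glycoprotein of the lysosomal membrane, had 209.3 TPM in PLC-8024-CTR cells and 81.9 TPM in PLC-8024-GDF1 cells, which was 2.56-fold lower (log2 change -1.34). Its relative LAMP2, which also serves chaperone-mediated autophagy, was listed at 56.9 and 36.2 TPM (log2 change -0.64). CD63, a tetraspanin of late endosomes and exosomes, had the highest level of all 42 genes in PLC-8024-CTR at 843 TPM and reached 1015 TPM in PLC-8024-GDF1 (log2 change 0.27). MCOLN1, the lysosomal calcium channel TRPML1, was listed at 49.6 and 51.4 TPM. It overlaps PNPLA6 on the same strand, which was listed at 35.6 and 73.7 TPM. Of the 100-base windows of the longest MCOLN1 transcript, 3.30% also occur in a different gene, AC008878.2, listed at 0.10 and 0.0001 TPM. The summed TPM of these 4 genes was 1159 and 1184 TPM, with lower levels of LAMP1 and LAMP2 beside a higher level of CD63, and the share of LAMP1 in it was 18.1% in PLC-8024-CTR and 6.91% in PLC-8024-GDF1.

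The 8 cathepsins, the main lysosomal proteases, did not differ in the same direction. CTSC (chromosome 11, 87998237 to 88092852, minus strand), dipeptidyl peptidase 1, which activates granule serine proteases, was listed at 51.8 and 22.3 TPM and was 2.32-fold lower (log2 change -1.18). With TPM rescaled so that the median change of all genes was 0 (factor 1.18), its change was -0.95, within 2-fold. By the plain ratio all 5 lower members stayed past it, but there the factor was smaller, 1.15 from genes with at least 5 TPM. CTSD, the aspartic protease of the group, was listed at 391.4 and 693.7 TPM and was 1.77-fold higher (log2 change 0.82), within 2-fold, but past it at 1.06 with rescaled TPM. AC068580.4, which overlaps CTSD on the same strand, was listed at 18.7 and 45.0 TPM, and added up the pair had a log2 change of 0.85. CTSA, a serine carboxypeptidase that also protects neuraminidase and beta-galactosidase in a complex, was listed at 484.2 and 650.9 TPM (log2 change 0.43). Of the cysteine proteases, CTSB was listed at 348.8 and 246.8 TPM (log2 change -0.50) and CTSL at 267.9 and 237.2 TPM (log2 change -0.17). These were the cathepsins with the highest levels, and CTSA and CTSD changed places, with CTSA first in PLC-8024-CTR and CTSD first in PLC-8024-GDF1. CTSZ was listed at 94.8 and 96.4 TPM, CTSH, which also acts as an aminopeptidase, at 14.3 and 12.9 TPM, and CTSS, best known from antigen-presenting cells, at 4.05 and 5.75 TPM. The summed cathepsin level was 1657 and 1966 TPM. CTSD gave 23.6% of it in PLC-8024-CTR and 35.3% in PLC-8024-GDF1, while the share of CTSB was 21.0% and 12.6%.

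Among the other hydrolases and their cofactors, NEU1 was past 2-fold lower. NEU1 (chromosome 6, 31825436 to 31830682, minus strand), the lysosomal sialidase, had 90.8 TPM in PLC-8024-CTR cells and 34.7 TPM in PLC-8024-GDF1 cells, 2.62-fold lower (log2 change -1.36). The partners of NEU1 in its multienzyme complex are GLB1 and CTSA. GLB1, beta-galactosidase, was listed at 19.8 and 11.4 TPM (log2 change -0.75), so the 3 subunits had changes of -1.36, -0.75 and 0.43. GLA, alpha-galactosidase A, was listed at 132.6 and 184.9 TPM (log2 change 0.48). It overlaps RPL36A on the opposite strand, a ribosomal protein gene listed at 1839 and 2330 TPM. RPL36A-HNRNPH2, which also overlaps GLA on the opposite strand, was listed at 43.8 and 1.93 TPM. Whether reads were split by strand in the counting is not given in the sources used here. HEXA, the alpha subunit of beta-hexosaminidase, was listed at 91.0 and 105.6 TPM, and PSAP, the precursor of the saposins that present sphingolipids to hydrolases, at 519.1 and 555.8 TPM. GAA, which breaks down glycogen, was listed at 88.8 and 65.8 TPM (log2 change -0.43), and LIPA, the acid lipase of cholesteryl esters, at 29.0 and 20.4 TPM (log2 change -0.49). PSAP thus remained the most abundant gene of this group in both libraries, and the summed level of the 7 genes was 971.2 and 978.6 TPM.

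None of the 8 autophagy initiation genes was past 2-fold. BECN1, Beclin 1, had the lowest change of the group, with 50.3 and 27.5 TPM (log2 change -0.85). WIPI1, which binds phosphatidylinositol 3-phosphate on the forming membrane, was listed at 45.7 and 28.1 TPM (log2 change -0.68), while its relative WIPI2 was listed at 55.7 and 49.1 TPM (log2 change -0.18). ULK1, the initiating kinase, was listed at 40.3 and 46.0 TPM, and its paralog ULK2 at 0.015 and 0.011 TPM. ULK1 was therefore the form with the higher level in both conditions. ATG13, the partner of ULK1, was listed at 52.1 and 39.8 TPM, ATG9A, the membrane scramblase, at 54.7 and 49.2 TPM, and ATG14, which directs Beclin 1 to autophagy, at 1.88 and 2.02 TPM. Of the 100-base windows of ATG9A, 44.1% also occur in another annotated gene that is not among the genes listed for these libraries. Whether this affects the level of ATG9A was not tested. The summed level was 300.7 and 241.7 TPM, and of the 7 genes with at least 1 TPM, 4 lay above the median change of all genes and 3 below it.

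The conjugation genes held the second gene that was past 2-fold higher, ATG7, and the gene with the lowest change of all 40, ATG16L1. ATG7 (chromosome 3, 11313995 to 11599139, plus strand), the E1-like enzyme that activates both ATG12 and the ATG8 proteins, had 6.85 TPM in PLC-8024-CTR cells and 17.3 TPM in PLC-8024-GDF1 cells, 2.53-fold higher (log2 change 1.22). VGLL4, which it overlaps on the opposite strand, was listed at 17.8 and 19.0 TPM. ATG16L1 (chromosome 2, 234118697 to 234204320, plus strand), which places the ATG12-ATG5 conjugate on the membrane, was listed at 13.3 and 4.39 TPM, 3.03-fold lower (log2 change -1.41). Components of a single reaction chain thus differed in opposite directions. ATG3, the E2-like enzyme for ATG8 proteins, was listed at 36.0 and 21.4 TPM (log2 change -0.72), ATG5 at 14.9 and 12.1 TPM, and ATG12 at 10.7 and 10.5 TPM. ATG3 had the highest level of the 5 in both libraries, and ATG16L1 moved from the third to the last place as ATG7 moved from the last to the second.

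Within the ATG8 family, GABARAPL1 was past 2-fold higher and MAP1LC3B past 2-fold lower. GABARAPL1 (chromosome 12, 10365057 to 10375727, plus strand) had 9.90 TPM in PLC-8024-CTR cells and 43.8 TPM in PLC-8024-GDF1 cells, 4.43-fold higher (log2 change 2.04). A change at least this high was seen in 98 of all 14929 genes (0.656%). MAP1LC3B (chromosome 16, 87417559 to 87438385, plus strand), the LC3 protein used as the usual marker of autophagosomes, was listed at 48.1 and 17.5 TPM, 2.75-fold lower (log2 change -1.41), and 579 genes (3.88%) had a change as low. The related copies MAP1LC3B2, at 1.07 and 0.77 TPM, and GABARAPL3, listed at 0 in both, were checked after these values were seen, and with MAP1LC3B2 added up the change was -1.38. Of the 100-base windows of the longest MAP1LC3B transcript, 9.09% also occur in MAP1LC3B2. Of the 3115 windows of the longest GABARAPL1 transcript, 0 occur in the longest transcript of another gene. GABARAP was listed at 53.3 and 42.9 TPM (log2 change -0.31) and GABARAPL2, also known as GATE-16, at 57.3 and 50.2 TPM (log2 change -0.19). The summed level of the 4 genes, 168.6 and 154.5 TPM, differed far less than their proportions. GABARAPL1 made up 5.87% of it in PLC-8024-CTR and 28.4% in PLC-8024-GDF1, and MAP1LC3B 28.5% and 11.3%. The value of GABARAP is uncertain, because 48.6% of all 100-base windows of its longest transcript also occur in AC120057.3, an overlapping gene on the same strand listed at 174.8 and 221.3 TPM. Added up, that pair had a log2 change of 0.21, and with it in the family total the share of GABARAPL1 was 2.88% and 11.7%.

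**Figure D2:**
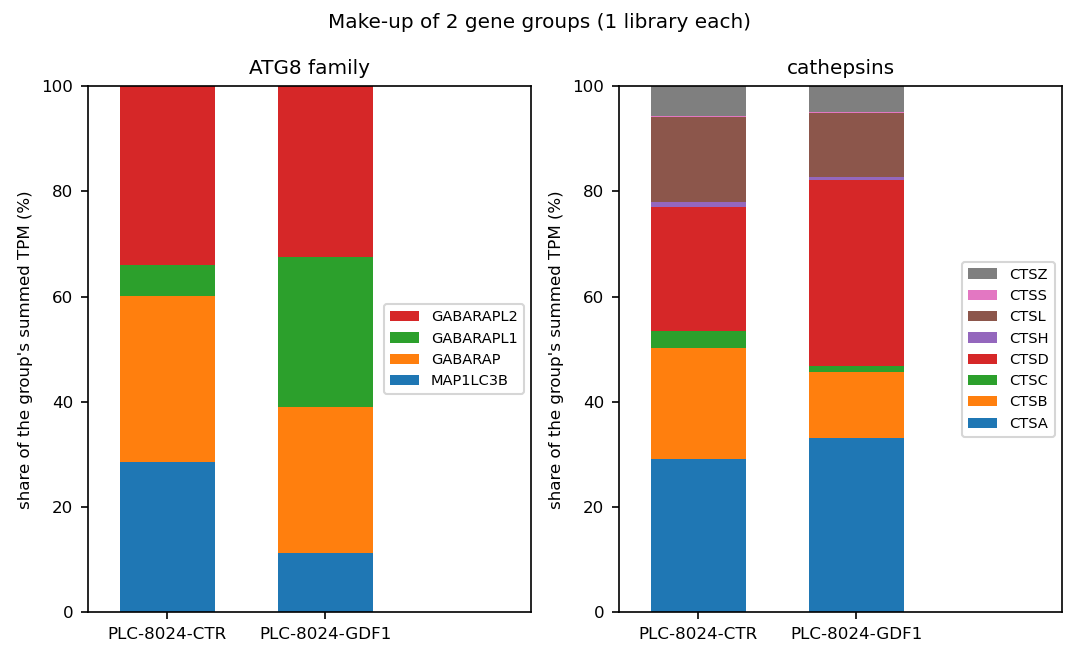
Share of each gene in the summed TPM of the ATG8 family (left) and the cathepsins (right), in percent, with 1 stacked bar per library. GABARAPL1 goes from 5.87% to 28.4% of the ATG8 family as MAP1LC3B goes from 28.5% to 11.3%, and CTSD goes from 23.6% to 35.3% of the cathepsins.

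Of the autophagy receptors, SQSTM1 came nearest to 2-fold. SQSTM1 (chromosome 5, 179233398 to 179265078, plus strand), p62, which binds ubiquitinated cargo and is itself degraded by autophagy, had 511.4 TPM in PLC-8024-CTR cells and 1021 TPM in PLC-8024-GDF1 cells. Its ratio was 1.996-fold and its log2 change was 0.996, just inside the limit (1.23 with rescaled TPM, past it), and it was the gene with the highest level of all 42 in PLC-8024-GDF1. On the opposite strand it overlaps MRNIP, listed at 74.4 and 38.1 TPM, and MGAT4B, listed at 353.1 and 281.2 TPM. Whether reads of these neighbours entered the value of SQSTM1 was not tested. OPTN, optineurin, a receptor for mitochondria and bacteria, was listed at 32.8 and 49.1 TPM (log2 change 0.57), and NBR1 at 17.5 and 13.1 TPM (log2 change -0.40). A gene for a noncoding RNA on the opposite strand of NBR1, AC060780.1, was listed at 246.1 and 127.3 TPM. The summed level of the receptors was 561.7 and 1083 TPM, almost wholly from SQSTM1.

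Across the 40 genes the order of the levels was largely kept, with a Spearman's rho of 0.90 between the libraries, given as a description across genes of the same 2 libraries. The change had a rho of 0.04 against the TPM of PLC-8024-CTR. Because that TPM is also part of the change, this value does not show that the change is independent of the level. The middle 50% of the members' log2 changes lay between -0.54 and 0.21, and that of all genes between -0.59 and 0.22. Within 0.5 of zero on this scale lay 24 of the 40 members (60%) and 55.6% of all genes. The distribution of the members thus lay on that of all genes, as the cumulative plot shows.

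**Figure D3:**
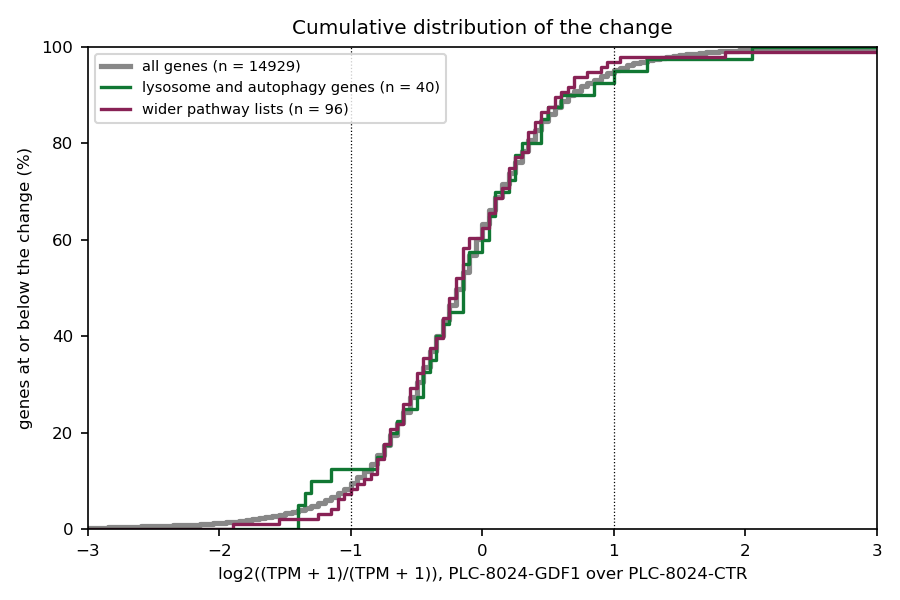
Cumulative share of genes (%) at or below a log2 change, for all 14929 genes with at least 1 TPM (grey), the 40 lysosome and autophagy genes (green) and the 96 genes of the wider pathway lists (purple). The 3 curves nearly coincide, with dotted lines at -1 and 1 marking the 2-fold limits.

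Because the log2 change of all genes varied with GC content, the members were set against genes of similar composition. Over all genes with a GC value, 14640 in number, split into 5 equal bins by GC content (measured on the longest transcript), the median log2 change ran from -0.45 in the lowest bin to 0.11 in the highest. From lowest to highest these medians were -0.45, -0.33, -0.21, -0.09 and 0.11. Those of the 6, 8, 13, 6 and 7 members in the same bins were -0.46, -0.18, -0.50, 0.18 and 0.05. The members' rho with GC content was 0.17, against 0.29 over all genes. LAMP1, NEU1, ATG16L1 and MAP1LC3B had GC contents between 48.5% and 51.6%, where the median of all genes was -0.21, and so did ATG7 at 50.3%. GABARAPL1 had 47.8%. Hence members past 2-fold in both directions fell in the same middle bin of GC content. CTSC was the exception, with a GC content of 39.2%, in the lowest bin. After the GC trend was removed its change was -0.76, within 2-fold, and that of SQSTM1 was 1.06, past 2-fold.

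**Figure D4:**
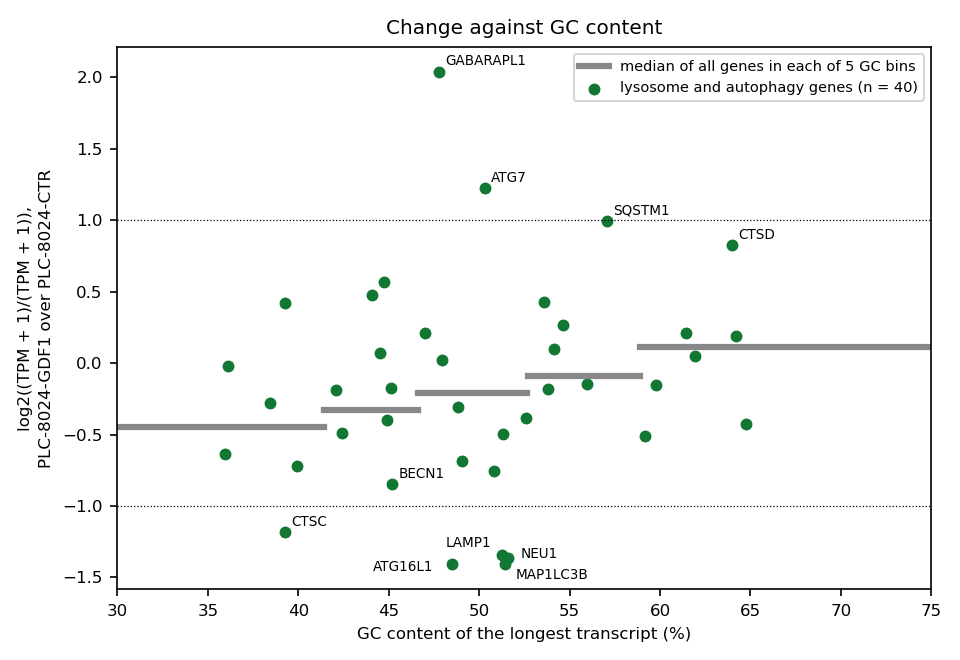
Log2 change of the 40 genes (points) against the GC content of the longest transcript (%), with grey bars for the median of all genes in each of 5 GC bins. The bins run from -0.45 to 0.11, and LAMP1, NEU1, ATG16L1 and MAP1LC3B lie below -1 in the middle of the GC range while GABARAPL1 lies above 2.

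The other genes of the pathway were then examined in 5 lists with 104 genes, of which 96 reached 1 TPM. Of these 96, 3 were past 2-fold higher and 8 past 2-fold lower (3.12% and 8.33%), beside the 4.82% and 9.61% of all genes given above. Their median log2 change was -0.22. By the plain TPM ratio among the 90 with at least 5 TPM, 4 were past 2-fold higher and 9 lower. These shares, 4.44% and 10%, compare with 5.79% and 13.3% over all such genes.

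The proton pump that acidifies the lysosome, the V-ATPase, had a median of -0.01 over 16 genes. ATP6V0A1, an a subunit of its membrane sector, had 9.74 TPM in PLC-8024-CTR cells and 105.7 TPM in PLC-8024-GDF1 cells (log2 change 3.31). It was the highest change of all the genes on these lists, and its paralog ATP6V0A2 was listed at 4.95 and 3.78 TPM. ATP6V1D was past 2-fold higher, at 16.7 and 34.9 TPM, and ATP6V1G1 past 2-fold lower, at 79.0 and 34.9 TPM. Subunits of the same pump thus differed in both directions.

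The other lysosomal hydrolases had a median of 0.07 over 24 genes, and 17 of them lay above the median of all genes. Past 2-fold lower were ASAH1, acid ceramidase, at 101.6 and 46.4 TPM, and ARSB, arylsulfatase B, at 10.9 and 4.86 TPM, and none was past 2-fold higher. The other membrane and sorting genes had a median of -0.30 over 14 genes. LAPTM4B, a lysosomal transmembrane protein, was the sole one past 2-fold, at 20.4 and 73.9 TPM (log2 change 1.81), while its relative LAPTM4A was listed at 87.8 and 46.1 TPM (log2 change -0.91).

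The remaining autophagy machinery had the lowest median of the 5 lists, -0.58 over 23 genes, and 17 of the 23 lay below the median of all genes. Past 2-fold lower were 4 genes, 17.4% of the 23 beside 9.61% of all genes, and 0 were past 2-fold higher. WDR45B, a relative of the WIPI proteins, was listed at 13.7 and 2.83 TPM (log2 change -1.93), and ATG4A, a protease that trims ATG8 proteins, at 9.20 and 2.47 TPM (log2 change -1.56). BNIP3, a receptor for mitochondria, was listed at 48.1 and 19.4 TPM (log2 change -1.27), and the receptor TAX1BP1, the fourth, at 34.2 and 15.2 TPM (log2 change -1.11). The GC-corrected median of this list was -0.31. By the plain ratio, 5 of its 19 genes with at least 5 TPM were past 2-fold lower, 26.3% beside 13.3% of all such genes. In the other direction 1 was past 2-fold higher, 5.26% beside 5.79%. Genes of mTORC1 and TFEB control had a median of -0.30 over 19 genes, and LAMTOR3, a subunit of the Ragulator complex, was past 2-fold lower at 6.31 and 2.51 TPM. With rescaled TPM, ATP6V1G1 (-0.93), ASAH1 (-0.88), ARSB (-0.82), TAX1BP1 (-0.89) and LAMTOR3 (-0.88) lay within 2-fold, while WDR45B, ATG4A and BNIP3 stayed past it. In the other direction, PIK3C3 (1.17), the lipid kinase in the Beclin 1 complex, IDUA (1.09), the hydrolase alpha-L-iduronidase, and LAMTOR2 (1.01), another Ragulator subunit, were then past 2-fold higher. By the plain ratio without rescaling, PIK3C3 was already 2.07-fold higher, at 6.24 and 12.9 TPM. RB1CC1, of the same autophagy list, was 2.27-fold lower by that ratio, at 6.60 and 2.91 TPM.

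**Figure D5:**
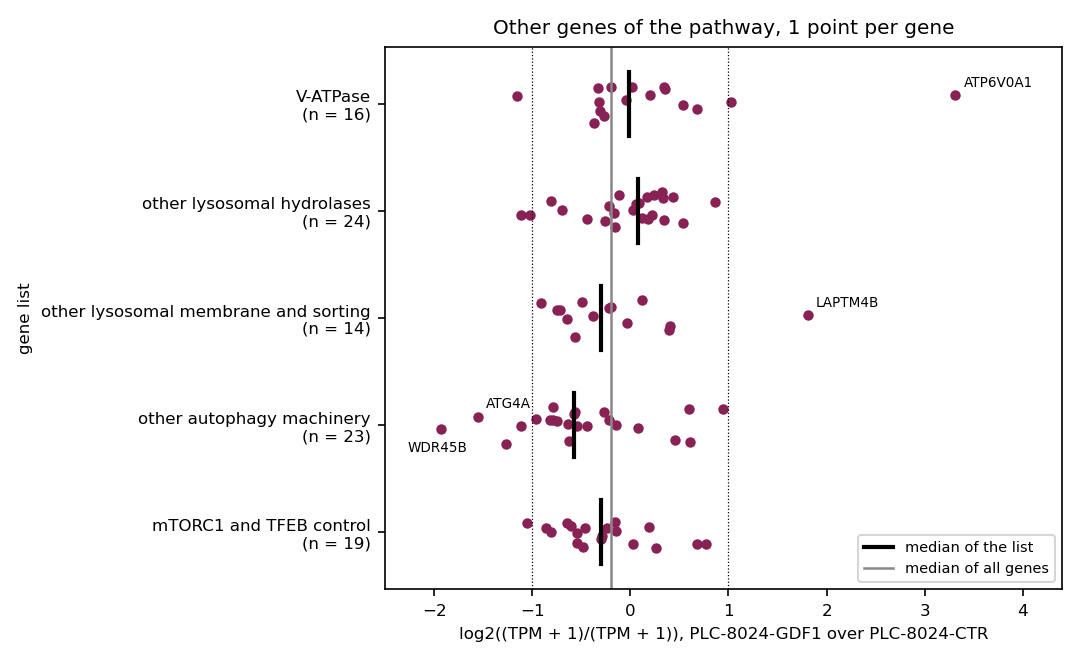
Log2 change of the 96 further pathway genes with at least 1 TPM, 1 point per gene and 1 row per list, with a black bar for the median of the list and a grey line for the median of all genes (-0.20). ATP6V0A1 (3.31) and LAPTM4B (1.81) lie far to the right, and the autophagy machinery has the lowest median (-0.58).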

How the data were processed

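RNA-seq was analysed from 2 libraries, 1 of PLC-8024-CTR cells and 1 of PLC-8024-GDF1 cells. The authors trimmed the reads with Trimmomatic 0.36, aligned them to hg19 with HISAT2 2.1.0 and deposited 1 TPM value per gene and library, computed with StringTie 1.3.3b (versions per the submitters' processing notes). Per the file headers the value is a mean TPM, and over what it was averaged is not given in the sources used here. The methods name the RefSeq annotation but Ensembl gene identifiers are listed, so the annotation behind the TPM, on which values of overlapping genes depend, is uncertain, and 0.0001 stands in place of 0.

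The log2 change was computed with a pseudocount of 1 over genes whose TPM reached 1 in either library, and the plain ratio over genes with at least 5 TPM. Positions, overlaps, GC content and transcript length came from GENCODE v44 on GRCh37, which held 55726 of the 58174 genes and all 42 members. Alternatives were a pseudocount of 0.1, the plain ratio (floor of 0.0001 TPM), minimums of 5 or 10 TPM or none, TPM of PLC-8024-GDF1 rescaled to a median change of 0 (factor 1.18), and removal of the GC trend by lowess (span 0.3). The factor 1.18 came from genes with at least 1 TPM. For the counts by the plain ratio at 5 TPM the factor was 1.15. Every member was named, as were genes of the wider lists past 2-fold with at least 5 TPM, at most 3 in each direction per list. TAX1BP1, ATP6V0A2, LAPTM4A, PIK3C3, RB1CC1, IDUA, LAMTOR2 and the overlapping genes or related copies fall outside that rule and were chosen after their values were seen. The members and lists were chosen with earlier results of these data known. Python 3.11.15, pandas 2.3.3, scipy 1.17.1 and statsmodels 0.14.6 were used, and the counting was tested on simulated data.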

Additional observations from a re-analysis of the deposited data

How the results depend on the processing

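No paired analysis was possible because only 1 library was made per condition. GABARAPL1, ATG7, LAMP1, NEU1, ATG16L1 and MAP1LC3B stayed past 2-fold in the same direction under a pseudocount of 0.1, the plain TPM ratio, rescaled TPM and removal of the GC trend. With rescaled TPM, which raises every gene of PLC-8024-GDF1 alike, 4 members were past 2-fold higher (CTSD at 1.06 and SQSTM1 at 1.23 joined) by either count. CTSC was then at -0.95, within 2-fold, with the pseudocount of 1 and a factor of 1.18. By the plain ratio at 5 TPM, with a smaller factor of 1.15, the 5 lower members stayed past 2-fold. The counts thus differ in pseudocount and in factor, and their parts in the result for CTSC were not separated. The median of the members was 0.058 with rescaled TPM and the pseudocount of 1, and with the GC trend removed it was -0.034. Both settings also centre the change of all genes, whose medians became 0 and -0.01. Small changes of 6 members turned in sign with rescaled TPM (CTSH, CTSL, ATG9A, WIPI2, ATG12 and GABARAPL2) and of 5 with the GC trend removed (MCOLN1, CTSL, ATG5, ATG12 and GABARAPL2). The pseudocount of 0.1 and the plain ratio changed the side of the limit for none of the 40. Adding up overlapping genes or related copies was chosen after the data were seen. With no replicates and no depth, genes with low TPM such as ATG14 and CTSS are the least certain.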
